A study of Mus musculus with 6 samples.

Results

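Ms4a1, Cd2, Cd1d1, Cd24a, Cd38, Cd40, Cr2, Ly6d, Bst1 and Spn encode surface proteins by which stages of B cell development are told apart. They were chosen by name, with earlier results of these data known. Of the 10, 9 were measured by a probe set of a single symbol, among 19937 genes named in this way. Cd38, an ectoenzyme and the close relative of Bst1, has no entry in the probe table used here and was not analysed here. Each of the 9 had 1 probe set.

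The cells were pro-B cells of C57/BL6 mouse origin transformed by v-Abl, the Abelson virus kinase oncogene, which holds them at an early stage while they proliferate. All 6 samples carried the same alleles, Foxo1f/f and ERCre. The first is Foxo1 flanked by loxP sites, and the second is a Cre recombinase that tamoxifen activates. The 3 untreated samples received no agent, and 3 samples received 1 µM tamoxifen for 2 days to delete Foxo1, a forkhead transcription factor needed for early B cell development. The labels do not say how many lines or clones were used or whether each sample was a separate culture. The p-values therefore cover the variation among these 6 samples only, and that may be technical. No cells with unfloxed Foxo1 were analysed here, so an effect of tamoxifen and loss of Foxo1 cannot be told apart. In bulk RNA, a lower share of cells with a transcript and less transcript per cell cannot be told apart either.

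Developing B cells change their surface in order. Pro-B cells carry Spn (CD43), Cd24a (heat-stable antigen) and Bst1 (BP-3), whereas Cd2 appears around the pre-B stage. Ms4a1 (CD20), Cd40, Cr2 (CD21) and Cd1d1 belong to later stages, Cr2 and Cd1d1 being most abundant on marginal zone B cells. Ly6d marks lymphoid progenitors committed to the B lineage and stays on B cells.

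RNA was hybridised to gene-level arrays with 34760 probe sets, whose median intensity per array lay between 100.9 and 109.1. Foxo1 had a mean intensity of 647 ± 149 in untreated and 134 ± 17.8 in tamoxifen samples (SD, n = 3), with a limma adjusted p = 0.0178, a call kept under 9 of 16 alternatives and, with 1 array left out, only without untreated sample 1. The sources do not say whether this probe set lies in the deleted part. Of 12 measured pro-B cell markers, 9 lay above background on all 6 arrays, among them Pax5, Ebf1, Cd79a and Vpreb1. Dntt, which adds bases at recombination joints, was above background in all 3 untreated samples (575, 297 and 281) and in 0 of 3 tamoxifen samples (161, 144 and 128). Ebf1, a transcription factor of the B lineage, had means of 1955 ± 135 and 1384 ± 185 (SD, n = 3) without overlap. Neither passed limma (adjusted p = 0.365 and 0.169), and their part in the values of the surface markers was not tested. The recombinase genes Rag1 and Rag2 were at background throughout. Of the markers of T cells (8), myeloid cells (8), NK cells (5), plasma cells (4) and erythroid cells (2), 0 were above background on any array. The number of arrays, 3 in each group, limits the precision of every value.

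To tell a measured transcript from background, each intensity was set against the level that genes of other organs gave on the same array. The reference was the 95th percentile of 72 tissue-restricted genes (of liver, muscle, eye, brain, kidney and other organs), which lay between 171 and 196 on the 6 arrays. By this rule 4 of the 9 genes were above background in all samples (Cd2, Cd24a, Bst1 and Spn), and 3 were at background in all samples (Ms4a1, Cd1d1 and Cd40). Cr2 and Ly6d crossed the level in some tamoxifen samples and in 0 of 3 untreated samples. Probe sets differ in how brightly they report a transcript, so a gene at background may still be transcribed at a low level.

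**Figure D1:**
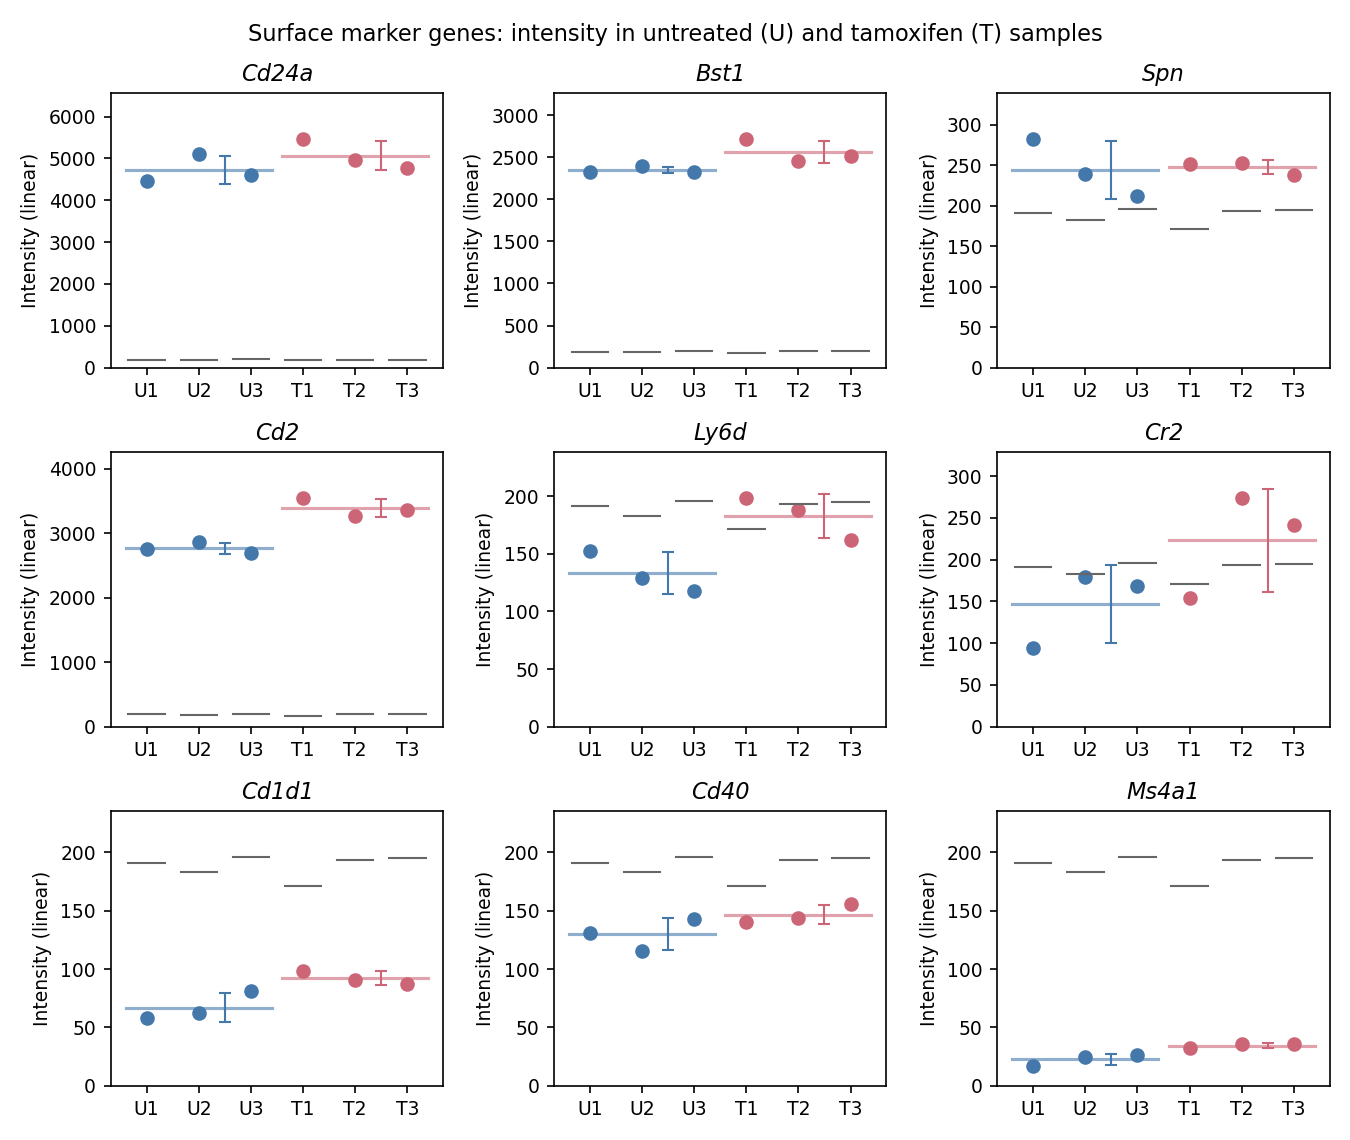
Intensity (linear scale, vertical axis from 0) of the 9 surface marker genes in untreated samples 1 to 3 (U1 to U3, blue) and tamoxifen samples 1 to 3 (T1 to T3, red). Points are samples, coloured lines are group means with SD bars (n = 3), and grey dashes mark the background level of each array. Cd24a, Bst1 and Cd2 stand far above the dashes, Spn just above them, and Cd1d1, Cd40 and Ms4a1 below them in all 6 samples.

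None of the 9 genes passed the test between tamoxifen and untreated samples, although all 9 differences were positive, against 44.5% of all genes. With limma and Benjamini-Hochberg adjustment over all 34760 probe sets, 0 of the 9 had an adjusted p below 0.05, where 0.0853% of the 19937 genes did. At an unadjusted p below 0.05 there were 4 of 9 (Cd2, Ms4a1, Cd1d1 and Ly6d), all higher with tamoxifen, against 2.96% of genes in that direction and 5.15% in either. Tamoxifen values lay wholly above untreated values for 5 of 9, the same 4 and Bst1, against 4.53% of genes. Because the genes were chosen with earlier results of these data known, these shares are descriptions and not independent support. Of these 5 genes, Ms4a1 and Cd1d1 were at background in all samples and Ly6d exceeded it in 1 of 6. The median log2 difference of the 9 was 0.28, and over the 19937 genes it was -0.01. Log2 differences are tamoxifen minus untreated on the scale of log2(intensity + 16) after quantile normalisation, which understates the change of dim genes, and intensities are the deposited values.

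**Figure D2:**
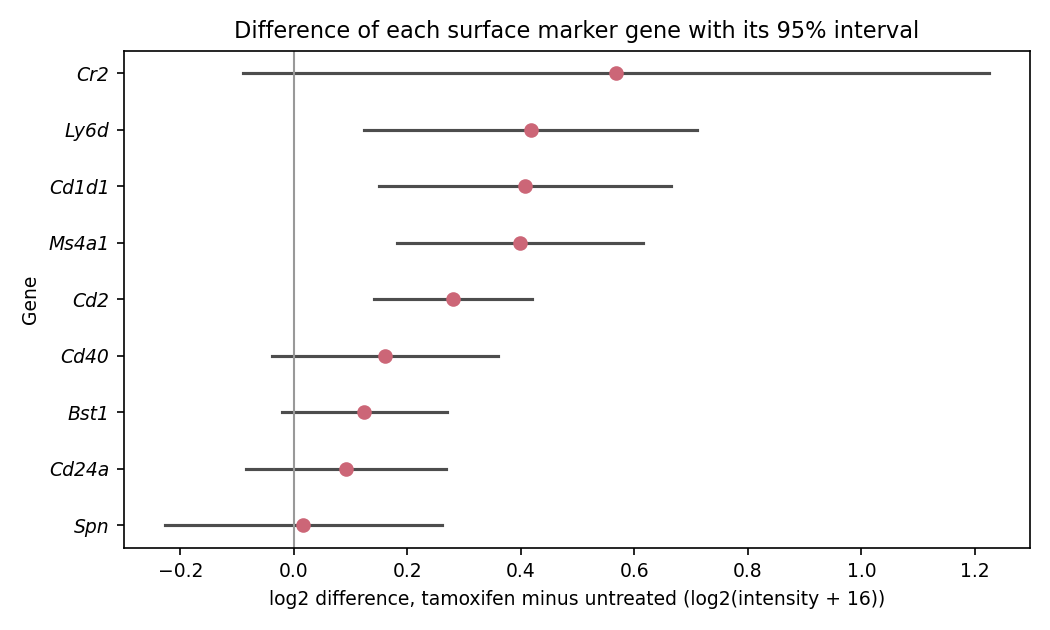
Log2 difference of each of the 9 genes, tamoxifen minus untreated, with its 95% interval from limma (horizontal axis, log2 units). The intervals of Ly6d, Cd1d1, Ms4a1 and Cd2 lie above 0 before adjustment over all probe sets, and those of Cr2, Cd40, Bst1, Cd24a and Spn include 0.

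The markers already present on pro-B cells were Cd24a, Bst1 and Spn, and their differences were small. Cd24a, a heavily glycosylated protein tethered by a lipid anchor, measured 4468, 5095 and 4608 in untreated samples 1 to 3 and 5458, 4959 and 4778 in tamoxifen samples 1 to 3. The groups overlapped, with means of 4724 ± 329 and 5065 ± 353 (SD, n = 3). Its log2 difference was 0.09 ± 0.07 (SE), with a 95% interval of -0.08 to 0.27 and a limma adjusted p = 0.9995. Without untreated sample 1 the difference was 0.05, without tamoxifen sample 1 it was 0.06, and without untreated sample 2 it was 0.14.

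Bst1, an enzyme that makes cyclic ADP-ribose from NAD and is anchored to the membrane by lipid, measured 2322, 2394 and 2330 in the untreated group and 2714, 2461 and 2520 in the tamoxifen group. All tamoxifen values were above all untreated values, tamoxifen sample 1 being the highest. The log2 difference was 0.12 ± 0.06 (SE), with an interval of -0.02 to 0.27 and a limma adjusted p = 0.9995.

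Spn, a mucin-like sialoglycoprotein of leukocytes, measured 282, 239 and 211 without tamoxifen and 252, 253 and 238 with it. The tamoxifen values lay within the range of the untreated ones. Means were 244 ± 35.6 and 248 ± 8.32 (SD, n = 3), a log2 difference of 0.02 ± 0.10 (SE) with an interval of -0.23 to 0.26. Its sign turned without untreated sample 2 (-0.01), untreated sample 3 (-0.06) or tamoxifen sample 2 (-0.01), so no direction can be given.

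Cd2, an adhesion receptor that binds Cd48, had the smallest unadjusted p of the 9 (0.00227) and was bright in all samples. It measured 2746, 2861 and 2688 in untreated samples 1 to 3 and 3540, 3260 and 3360 in tamoxifen samples 1 to 3. The groups were well separated, the lowest tamoxifen value being 3260 and the highest untreated one 2861. Means were 2765 ± 88.4 and 3386 ± 142 (SD, n = 3). The log2 difference was 0.28 ± 0.06 (SE), with an interval of 0.14 to 0.42, 1.21-fold on that scale, and with a limma adjusted p = 0.369 it did not pass. With 1 sample left out the difference ran from 0.26 to 0.30. Cd48, its ligand, measured 1545 ± 111 and 1687 ± 4.92 (SD, n = 3), a log2 difference of 0.11 ± 0.07 (SE).

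Ly6d, a small lipid-anchored protein of the Ly6 family, measured 153, 129 and 117 in the untreated group and 198, 188 and 162 in the tamoxifen group. The groups did not overlap, but only tamoxifen sample 1 exceeded the background level of its array (171). Against the 75th percentile of the reference genes, 2 of 3 untreated and 3 of 3 tamoxifen samples were above. Against the array median all samples were. The log2 difference was 0.42 ± 0.12 (SE), with an interval of 0.12 to 0.71, an unadjusted p of 0.0124 from limma and a limma adjusted p = 0.698.

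Cr2, complement receptor 2, had the largest difference of the 9 with all 6 samples and also the largest standard error, and its untreated values were all at background. It measured 93.9, 179 and 169 in untreated samples 1 to 3 and 155, 274 and 242 in tamoxifen samples 1 to 3. Sample 1 was the lowest of both groups, and the groups overlapped because tamoxifen sample 1 lay below untreated samples 2 and 3. Tamoxifen samples 2 and 3 exceeded the background levels of their arrays (193 and 195). Against the 90th percentile of the reference genes, 1 of 3 untreated and 3 of 3 tamoxifen samples were above, and against the 75th, 2 of 3 and 3 of 3. Means were 147 ± 46.4 and 223 ± 61.7 (SD, n = 3), with a log2 difference of 0.57 ± 0.27 (SE), an interval of -0.09 to 1.22 and a limma adjusted p = 0.9995. Without untreated sample 1 the difference was 0.31, below the 0.52 of Ly6d and the 0.34 of Cd1d1, and without tamoxifen sample 2 it was 0.41, below the 0.43 of Cd1d1. Without tamoxifen sample 1 it was 0.78. Cr2 works on the B cell surface in a complex that includes the tetraspanin Cd81, for which the means were 1447 ± 109 and 1681 ± 77.9 (SD, n = 3) and the log2 difference 0.21 ± 0.06 (SE), with a limma adjusted p = 0.688.

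Promoters from RefSeq (assembly GRCm38.p6) could be shown for Cr2 and Spn, the genes with the largest and the smallest difference over all 6 samples. Each runs from 250 bases before to 50 bases after the annotated start, on the minus strand of the genome, Cr2 at chr1:195176670-195176969 and Spn at chr7:127137774-127138073. The sequences are written 5′ to 3′ along the gene, and capitals mark matches to CCCNNGGG, the core recognised by EBF1.
Cr2: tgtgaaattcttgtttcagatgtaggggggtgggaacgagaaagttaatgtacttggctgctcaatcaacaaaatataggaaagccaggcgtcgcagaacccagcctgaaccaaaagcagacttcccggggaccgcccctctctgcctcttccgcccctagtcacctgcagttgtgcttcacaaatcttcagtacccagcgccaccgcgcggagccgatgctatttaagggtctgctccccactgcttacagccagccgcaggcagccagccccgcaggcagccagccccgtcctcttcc
Spn: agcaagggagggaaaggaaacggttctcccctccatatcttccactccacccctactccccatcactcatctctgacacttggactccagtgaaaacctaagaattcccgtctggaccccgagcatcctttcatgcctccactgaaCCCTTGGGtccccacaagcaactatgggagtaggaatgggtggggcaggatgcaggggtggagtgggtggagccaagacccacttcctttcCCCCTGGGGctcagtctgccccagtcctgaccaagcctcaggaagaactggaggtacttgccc
Both strands were searched for GTAAACA (forkhead factors), ATTTGCAT (octamer factors), GAGGAAGT (PU.1 and Spi-B) and CCCNNGGG. The Spn promoter held 3 matches to CCCNNGGG, starting at -104, -13 and -12 from the start, and the last pair overlaps. The Cr2 and Cd38 windows held none of these letter strings. Among 32851 promoters of the same length, 13.7% held CCCNNGGG, 3.65% GTAAACA, 1.74% ATTTGCAT and 3.2% GAGGAAGT. A match describes the letters only and is not evidence of binding.

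The markers of later B cells at background were Ms4a1, Cd1d1 and Cd40. Ms4a1, a membrane protein that modulates calcium entry in B cells, measured 17.0, 24.7 and 26.1 without tamoxifen and 32.0, 35.3 and 36.0 with it. All of these lie below the lower quartile of every array, which was 43.3 at the lowest. The groups did not overlap, and the log2 difference was 0.40 ± 0.09 (SE), with an interval of 0.18 to 0.62, an unadjusted p of 0.00374 from limma and a limma adjusted p = 0.461. With a pseudocount of 1 in place of 16 the difference was 0.61, and with 64 it was 0.19, so its size rests on how dim values are treated.

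Cd1d1, which presents lipids to natural killer T cells, measured 57.9, 62.0 and 81.1 in the untreated group and 98.5, 91.0 and 87.0 in the tamoxifen group. The groups did not overlap, all values being below the array medians. The log2 difference was 0.41 ± 0.11 (SE), with an interval of 0.15 to 0.66 and a limma adjusted p = 0.61. Its close paralog Cd1d2 had means of 112 and 109, a log2 difference of -0.03 ± 0.13 (SE). Transcripts this alike may hybridise to each other's probes, which makes both values uncertain. B2m, the light chain that Cd1d1 pairs with, had a log2 difference of 0.05 ± 0.07 (SE).

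Cd40, the receptor through which T cells help B cells, measured 131, 116 and 143 without tamoxifen and 140, 144 and 156 with it. The deposited values of the groups overlapped, with a log2 difference of 0.16 ± 0.08 (SE), an interval of -0.04 to 0.36 and a limma adjusted p = 0.9995. After quantile normalisation the tamoxifen values lay wholly above the untreated ones, and without untreated sample 2 the difference was 0.09. Its deposited values were above the array medians but below the level of the reference genes, and against the 75th percentile of these genes it would count as above background in all 6 samples. Its ligand gene Cd40lg had means of 36.3 and 35.6.

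**Figure D3:**
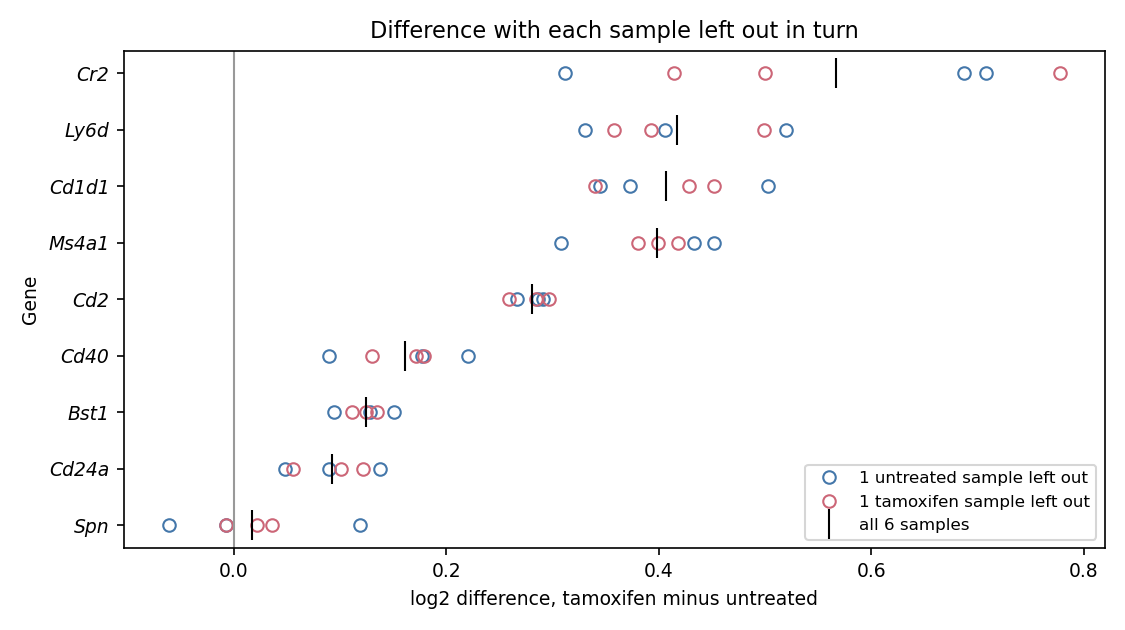
Log2 difference of each of the 9 genes (horizontal axis, log2 units) with all 6 samples (black bars) and with 1 untreated (blue circles) or 1 tamoxifen sample (red circles) left out. Cd2 stays between 0.26 and 0.30, Cr2 ranges from 0.31 to 0.78, and circles for Spn lie on both sides of 0.

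Across the 6 arrays, the closest profiles to those of Cd2, Bst1 and Cd24a were sought among 9822 other genes brighter than the median of every array. These are descriptions over 6 arrays that share the same groups. For Cd2 they were Bcar3, an adaptor protein (Pearson r = 0.996), Tmem108, a transmembrane protein (0.995), and Tnfrsf13c, the BAFF receptor of maturing B cells (0.994). For Bst1 they were Itm2b (0.995), Slc25a46 (0.988) and Ddx58 (0.986), and for Cd24a they were Zzef1 (0.995), Dnajc1 (0.991) and Dph6 (0.990). Among the 9 themselves, the 4 genes above background in all samples gave r from -0.44 (Bst1 and Spn) to 0.92 (Cd2 and Bst1).

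Other genes of B cell stages were taken from lists of mature-stage and early-stage genes, drawn up with earlier results of these data known. Their counts beside the share of all genes are therefore descriptions and not independent support. Of 33 measured mature-stage genes, limma called 1 higher and 0 lower over all probe sets, where it called 0.0853% of all genes. In this list 27 differences were positive, against 44.5% of genes, with a median of 0.12. Tamoxifen values lay wholly above untreated values for 14 of 33, against 4.53% of genes, and 13 were higher at an unadjusted p below 0.05, against 2.96% of genes. They lay wholly below for 2 of 33, Cd80 and H2-Ob, against 950 of 19937 genes. At an unadjusted p below 0.05, 1 was lower, H2-Ob, against 436 of 19937. H2-Ob had means of 866 ± 84.9 and 709 ± 28.9 (SD, n = 3), a log2 difference of -0.29 ± 0.09 (SE) with a limma adjusted p = 0.733. Of the genes without overlap, Cd80, Fcrl1, H2-Aa and H2-Ab1 were at background in all samples. Over the whole list, 14 of 33 genes were above background in all 3 samples of at least 1 group. The called gene, Tnfrsf13c, rose from 341 ± 11.1 to 699.8 ± 41.7 (SD, n = 3), a log2 difference of 0.98 ± 0.07 (SE) with a limma adjusted p = 0.0223. That call was kept under 8 of 16 alternatives and ended with any 1 array left out, with the replicate block and with arrays scaled to a common median (adjusted p over all 16 from 0.00148 to 0.146). Cd74, the invariant chain of MHC class II, measured 178, 156 and 102 in the untreated group and 413, 432 and 506 in the tamoxifen group. The untreated values were all below the background levels of their arrays and the tamoxifen values all above, so the log2 difference of 1.56 ± 0.21 (SE) is set against an arm at background. With a limma adjusted p = 0.132 it did not pass. Cd180, a Toll-like receptor homologue of B cells, had means of 555 ± 140 and 941 ± 125 (SD, n = 3) and a log2 difference of 0.75 ± 0.22 (SE). Other mature-stage markers stayed dim, such as the low-affinity IgE receptor Fcer2a, with means of 48.4 and 48.9, and the costimulator Cd86, with 23.0 and 23.1.

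Among 14 measured early-stage genes limma called 0, with 5 higher at an unadjusted p below 0.05 against 2.96% of genes. Of their differences 7 were positive and 7 negative (median 0.03), where 44.5% of all genes were positive. The 3 largest differences above background were those of Il2ra, Cd93 and Enpep. Il2ra, the interleukin-2 receptor alpha chain found on pre-B cells, had means of 841 ± 80.6 and 1168 ± 77.9 (SD, n = 3), a log2 difference of 0.46 ± 0.10 (SE). Enpep, the aminopeptidase known as BP-1, had 3454 ± 225 and 4351 ± 28.7 (SD, n = 3), a difference of 0.33 ± 0.07 (SE). Cd93, the antigen AA4.1 of immature B cells, had 1458 ± 80.4 and 1849 ± 26.8 (SD, n = 3), a difference of 0.34 ± 0.08 (SE). For these 3 genes tamoxifen values lay above untreated values without overlap, with limma adjusted p between 0.385 and 0.427. Kit, the stem cell factor receptor of early pro-B cells, was dim, with means of 54.3 and 48.4.

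**Figure D4:**
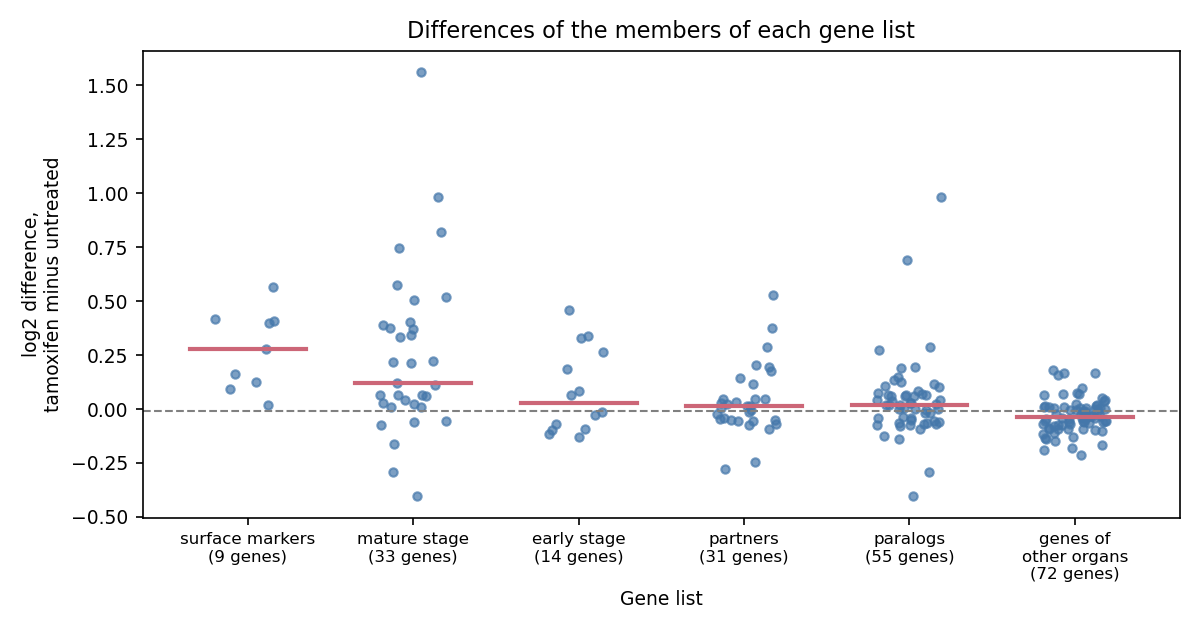
Log2 difference, tamoxifen minus untreated (vertical axis, log2 units), of each measured gene in 6 lists, with list medians as red lines and the median of all 19937 genes (-0.01) as a dashed line. The 9 surface markers lie between 0.02 and 0.57, and the mature-stage list reaches from -0.40 to 1.56.

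Binding partners, ligands and signalling proteins of the 10 surface markers were also measured, from a list drawn up with the same knowledge of earlier results. Of 31 measured partners limma called 0, with 3 higher at an unadjusted p below 0.05 against 2.96% of genes. Of their differences 17 were positive (median 0.01), against 44.5% of all genes. Siglecg, an inhibitory lectin that binds Cd24, gave intensities of 422, 422 and 412 without tamoxifen and of 501, 601 and 575 with it. Its groups did not overlap, and the log2 difference was 0.38 ± 0.11 (SE) with a limma adjusted p = 0.703. Psap, whose saposin products load lipids onto CD1d, had means of 626 ± 134 and 904 ± 44.8 (SD, n = 3), a log2 difference of 0.53 ± 0.13 (SE) with a limma adjusted p = 0.52. Pecam1, which binds CD38, overlapped between groups, with a log2 difference of 0.29 ± 0.21 (SE). The adaptors of Cd40 signalling Traf2, Traf5 and Traf6 had differences of -0.09, -0.05 and -0.07, and Nfkb2 -0.05. Other signalling genes of the list had small positive differences, Traf1 0.05, Birc2 0.03, Tradd 0.02 and Relb 0.004. Nfkb2, Relb and Traf1 were at background in all samples. Traf2 was above background in untreated sample 1 only, and Tradd in all but untreated sample 3 and tamoxifen sample 3. Cd48, Cd81, Cd1d2, B2m, Cd40lg, Fcer2a, Cd80, Cd86, Kit, the Traf genes, Nfkb2, Birc2, Tradd, Relb, Fcrl1, H2-Aa, H2-Ab1 and H2-Ob are named here outside the rule for genes, with their values already known.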

How the data were processed

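The deposited values were linear intensities, 1 per probe set and array, already summarised by the authors. Background correction, summarisation, normalisation and scan batches are not given in the sources used here. Per the labels' protocols, TRIZOL- and column-purified RNA was made into biotinylated cRNA. Groups came from sample titles. Of 34760 probe sets, 21640 had 1 gene symbol, 1321 several, and 11799 were not listed. For a gene with several probe sets the brightest was used.

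Intensities were taken as log2(value + 16), quantile normalised and compared with lmFit and eBayes (limma 3.58.1, R 4.3.3, two-sided, Benjamini-Hochberg over all probe sets, threshold 0.05). The fit was also run on simulated data with independent noise on each array. The outcome is not given here, and no result rests on it. Whether groups overlap was judged on deposited values. A gene was above background in a sample above the 95th percentile of the reference genes. Figures were drawn with matplotlib 3.10.9.

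The members and lists were chosen with earlier results of these data known. The rule for named genes took all members, Foxo1, up to 4 called genes and the 3 largest differences above background of each list, and the 3 closest profiles of the 3 members with the largest differences above background. The alternatives were a replicate block, each array left out, other normalisations, pseudocounts, filters, eBayes settings, array weights, probe set means and background levels.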

Additional observations from a re-analysis of the deposited data

How the results depend on the processing

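None of the 9 genes was called under any of the alternatives (0 of 142 values), and 139 of 142 values kept their sign. The exceptions were Spn without untreated sample 2, untreated sample 3 or tamoxifen sample 2, its difference running from -0.061 to 0.119 with 1 array left out. At an unadjusted limma p below 0.05 there were 4 or 5 of the 9, or 2 of 7 where dim probe sets were left out, a fit that drops Ms4a1 and Cd1d1. Beside these counts, 1360 to 2525 of all 34760 probe sets were below 0.05 in either direction. The fit without dim probe sets had 1069 of 17380, and the fit on probe set means 1276 of 19937 genes. Over all alternatives the limma adjusted p of Cd2 ran from 0.152 to 0.968. The number of probe sets called over all was 20, and it was 20 with cyclic loess normalisation and 22 with a pseudocount of 64. It was 3 with arrays scaled to a common median, 12 with no further normalisation (83.3% of them higher, against 65%), 46 with 17380 brighter probe sets, 12 with an intensity trend and robust eBayes, 39 with array weights, 11 with a pseudocount of 1 and 73 with probe sets averaged over 19937 genes. The cause was not tested. With 1 array left out it ran from 0 to 6 (6 without untreated 1, 2 without tamoxifen 1, 0 without each of the other 4, fits in which 1360 or more had an unadjusted limma p below 0.05). With the replicate block it was 0, with 2525 at an unadjusted p below 0.05. Cr2 then had a difference of 0.57 ± 0.06 (SE) with a limma adjusted p = 0.165, where the main fit gave an SE of 0.27. Deviations of same-numbered samples correlated at 0.256, 0.0547 and 0.302, and those of differently numbered samples at -0.420 to 0.248. The main fit has no pairing because no label says that the numbers pair the samples. Whether they do is not settled by these values. Counts at background were 3, or 3, 2 and 2 with the 90th percentile, the 75th percentile and the array median. Dim signal limits what can be said of Ms4a1, Cd1d1 and Cd40.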

Other observations

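The families to which the surface markers belong were also measured. Of 15 genes of the Ms4a family other than Ms4a1, limma called 0, with 2 at an unadjusted p below 0.05 (Ms4a6b lower and Ms4a4c higher), against 5.15% of all genes in either direction. These 2 had differences of -0.29 and 0.29, the ends of the range. Ms4a4c was at background, with means of 61.0 and 77.0, and Ms4a6b was above background in untreated sample 2 only. Among 8 relatives of Cd2 in the SLAM family limma called 0, with 0 at an unadjusted p below 0.05. Of their differences 7 were positive, against 44.5% of all genes. Ly9, a SLAM family receptor, had the largest of these, with intensities of 1729 ± 125 and 1993 ± 57.4 (SD, n = 3) in untreated and tamoxifen samples and a log2 difference of 0.20 ± 0.08 (SE). Of 17 genes of the Ly6 family limma called 0, with 0 at an unadjusted p below 0.05, and differences lay between -0.14 and 0.15. Among 9 TNF receptor family genes other than Cd40, limma called 1, against 0.0853% of all genes. It was Tnfrsf13c, the same call as in the mature-stage list, which ended with any 1 array left out. Cd27 was dim at 78.2 and 79.3. Cd52, a small lipid-anchored glycoprotein of lymphocytes, measured 1940, 1600 and 1400 without tamoxifen and 3347, 2319 and 2340 with it. Its groups did not overlap, with a log2 difference of 0.69 ± 0.14 (SE) and a limma adjusted p = 0.369. Ms4a6b, Ms4a4c and Cd27 were named after their values were seen.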
